A study of Homo sapiens with 6 samples.

Results

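The genes described here are 10 genes of glucose uptake and glycolysis: the glucose transporters *SLC2A1* and *SLC2A3*, the hexokinases *HK1* and *HK2*, and the enzymes *PFKP*, *ALDOA*, *PGK1*, *ENO1*, *PKM* and *LDHA*. They were chosen by symbol from a total of 60651 genes, and all 10 were found. Expression was measured by total RNA sequencing in 6 libraries of human neuroblastoma cells, of which 3 were titled EtOH (ethanol, the vehicle) and 3 Tet (tetracycline, given for 5 days per the labels). The comparison was of tetracycline with vehicle, in cells that the labels describe as carrying an inducible *MYCN* construct. Whether tetracycline switched it in these libraries was not established, as *MYCN* RNA gave no direction (below) and protein was not measured here. The labels disagreed on the cells: the titles named IMR-5/75, a *MYCN*-amplified line, and a tag called the groups control and induction of a knockdown, while the culture protocol spoke of SK-N-SH cells with inducible *MYCN* expression. The study described an SK-N-AS line for *MYCN* expression and an IMR-5/75 line for an inducible *MYCN* shRNA. By western blot, it reported less MYCN protein in the IMR-5/75 line after tetracycline, and more in the SK-N-AS line. It also reported a global increase of circular RNAs after that knockdown. Per the labels, both groups carried the tetracycline repressor system and were grown as single clones under G418 and blasticidin, and the number of clones was not given. In the study, G418 and blasticidin were used for the SK-N-AS line, and zeocin and blasticidin for the IMR-5/75 line. Nothing in the labels said that the libraries came from separate cultures, and p-values measure the spread between these libraries.

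Glycolysis splits glucose into pyruvate in the cytosol and yields ATP without oxygen. Facilitative transporters of the SLC2A (GLUT) family bring glucose in, hexokinases trap it as a phosphate ester, phosphofructokinase commits it to breakdown, and the later enzymes harvest ATP and NADH. Lactate dehydrogenase then reduces pyruvate to lactate and regenerates the NAD+ that the pathway needs. Many tumours keep this route running in the presence of oxygen, and transcription factors of the MYC family and the hypoxia-inducible factors are known regulators of its genes.

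MYC family proteins are known to bind the E-box CACGTG, and the windows that hold it are shown because *MYCN* was the construct's product or target. The motif was searched in the 250 bases before each RefSeq gene start on GRCh38.p14. It reads the same on both strands. Of 35116 windows, 2228 (6.34%) held it. The table held 22 windows for 9 of the 10 genes, some with several starts, and 3 of these 22 windows held the motif, 1 each of *LDHA*, *HK2* and *ALDOA*. The sequences are from RefSeq, written 5′ to 3′ on the strand of the gene with the E-box in capitals, and all 3 genes lie on the plus strand.
LDHA, chr11:18394366-18394395, 185 bases before the start: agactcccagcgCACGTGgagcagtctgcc
LDHA, chr11:18394464-18394493, 87 bases before the start: cagcccgactcaCACGTGggttcccgcacg
HK2, chr2:74834964-74834993, 194 bases before a downstream start: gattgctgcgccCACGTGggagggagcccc
HK2, chr2:74835009-74835038, 149 bases before a downstream start: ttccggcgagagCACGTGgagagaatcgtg
ALDOA, chr16:30064373-30064402, 112 bases before a downstream start: tggcagggaggcCACGTGatccgagtcccc
The *LDHA* and *HK2* sites lay in no annotated exon, and the *ALDOA* site lay in one. A match describes these letters only and is no evidence of binding.

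Library totals were 27933378 to 40498065 counts, and 3 counts were worth 0.0741 to 0.107 CPM on these unscaled totals. All other CPM of genes are counts divided by the scaled library total. *MYCN* checked the labels and gave no direction: it measured 158, 256 and 156 CPM in the EtOH libraries and 197, 200.1 and 145 CPM in the Tet libraries, and its fitted difference, Tet minus EtOH, was -0.07 on the log2 scale (SE 0.23, adjusted p = 0.956 in edgeR), or 0.21 without EtOH replicate 2. That library stood apart. Genes of high GC content were low in it relative to genes of low GC content, with a difference of -0.60 between the top and the bottom quintile of 16608 genes by GC content (median log2 deviation from the mean of all libraries), against 0.43 and 0.11 in the other EtOH libraries and -0.11, -0.29 and 0.48 in the Tet libraries. Its mitochondrial share was also the lowest (4.12%, 5.86% to 10.01% in the others). Fold changes and ratios of named genes that moved by over 1.5 times, turned sign or crossed the threshold without it are therefore given both ways. Of 8 markers of noradrenergic neuroblastoma cells, 5 had a mean of at least 1 CPM, and the summed level of the list was 359.5 to 445 CPM in EtOH and 505 to 575 CPM in Tet libraries, higher in every Tet library. *GATA3*, *HAND2* and *ISL1* were present, whereas the catecholamine enzymes *TH* and *DBH* were under 1 CPM. Of the 5 tested genes of this list, 4 had log2 fold changes above 0 and *HAND2* had -0.14. None passed the adjusted threshold (lowest adjusted p = 0.142 in edgeR). Mesenchymal markers were detected for 6 of 9 genes (124 to 223 CPM in EtOH, 117 to 166 CPM in Tet, *COL1A2* at 0), leukocyte and endothelial markers for 0 of 5 (at most 1.14 CPM, *CD3E* and *VWF* at 0), and Schwann cell markers for 1 of 5 (1.66 to 5.59 CPM over all libraries, *S100B* at 0). Of the 7 tested mesenchymal markers, 3 had log2 fold changes above 0 and 4 below, and none passed (lowest adjusted p = 0.143 in edgeR). The part of these marker levels in the results was not tested.

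*LDHA*, which makes lactate, was lower in every Tet library than in any EtOH library, and its mean level in Tet was 0.515 of that in EtOH by the fitted fold change. The 8 other genes that could be tested overlapped between the groups, with log2 fold changes between -0.38 and 0.54. No gene of the 10 passed the adjusted threshold of 0.05 in edgeR's quasi-likelihood test. At an unadjusted p under 0.05 there was 1 of 9 (*LDHA*), or 11.1%, beside 10.8% of all 22443 genes tested, and 0.236% of all genes passed the adjusted threshold. DESeq2 called 1 of the 9, *LDHA*, and 2.66% of all genes. Groups that did not overlap were found for 1 of 9 genes, beside 17.5% of all genes (8.28% lower in Tet). The share by unadjusted p was close to that over all genes, the share with separate groups was below it and the DESeq2 share was above it. Each of these counts is *LDHA* alone, so the counts are not a result about the glycolytic genes. The median log2 fold change was -0.13 over the 9 genes and -0.01 over all genes tested, with 3 genes above 0 and 6 below. In bulk RNA, fewer cells of a type and less RNA per cell cannot be told apart.

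**Figure D1:**
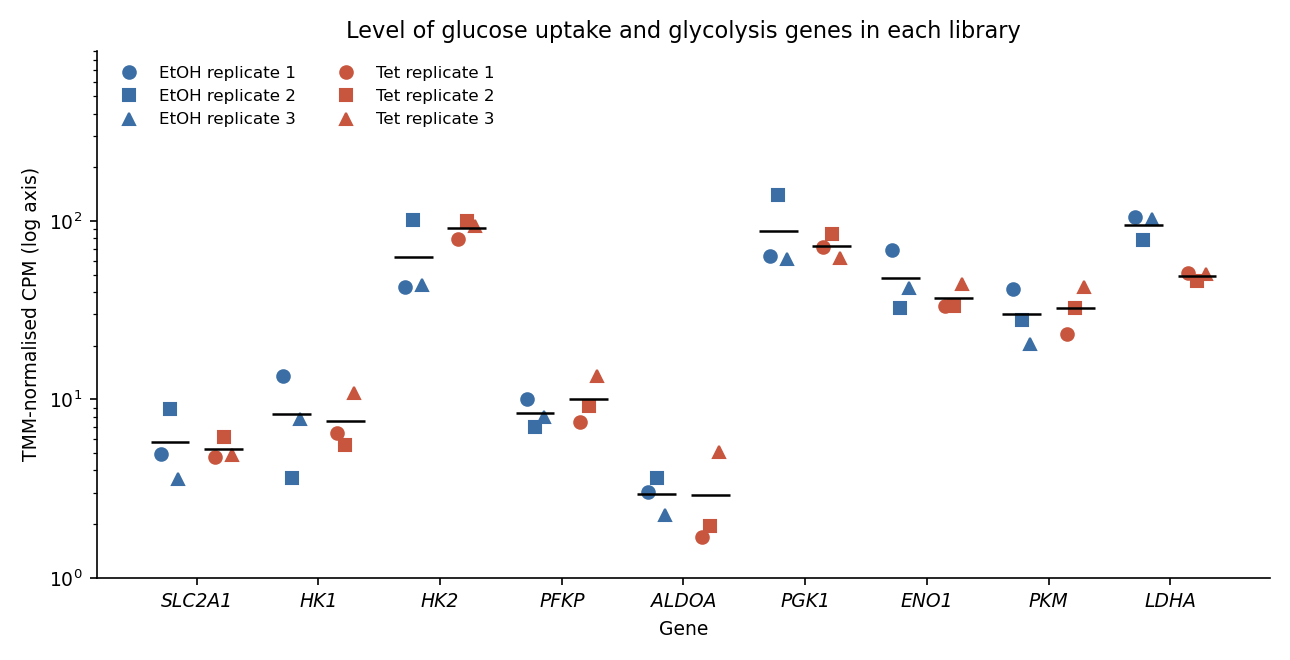
TMM-normalised CPM on a log axis for the 9 tested genes, with 1 point for each library, coloured by group, and black bars at the group means. Only the *LDHA* groups are separate, with EtOH libraries at 78.3 to 106 CPM and Tet libraries at 45.9 to 51.0 CPM.

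The glucose transporters had low levels, and no difference between the groups was detectable for either. *SLC2A1* (GLUT1, the basal glucose transporter of many cells; ENSG00000117394.24, chr1:42925353-42958893, minus strand) measured 4.94, 8.87 and 3.60 CPM in EtOH replicates 1 to 3 and 4.79, 6.15 and 4.91 CPM in Tet replicates 1 to 3. The Tet values all lay inside the EtOH range. Its fitted log2 difference was -0.13 (SE 0.34, 95% interval -0.92 to 0.65, adjusted p = 0.944 in edgeR), and it was 0.31 without EtOH replicate 2, the highest library. *SLC2A3* (GLUT3, the high-affinity neuronal transporter; ENSG00000059804.16, chr12:7919230-7936187) had 1, 0 and 0 counts in EtOH and 0, 0 and 2 counts in Tet libraries. It was under the 3 counts that a count of 0 allows in each library and was not tested. The annotated pseudogene *SLC2A3P1* (ENSG00000253861.1, chr5:168552277-168553727), by contrast, held 37.9 to 73.1 CPM in EtOH and 33.2 to 40.5 CPM in Tet libraries. All of its exon bases (100%) lie in exons of *PANK3* on the same strand, so those counts cannot be told apart from *PANK3*.

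Both hexokinases catalyse the first step, the phosphorylation of glucose. *HK2*, the inducible isozyme at the outer mitochondrial membrane (chr2:74834127-74893359), measured 42.8, 101 and 44.002 CPM in EtOH and 79.5, 99.5 and 94.2 CPM in Tet libraries. EtOH replicates 1 and 3 were the lowest libraries and EtOH replicate 2 was the highest, so the groups overlapped through that single library. The fitted log2 difference was 0.54 (SE 0.32, 95% interval -0.20 to 1.28, adjusted p = 0.618 in edgeR). Without EtOH replicate 2 it was 1.07 with an adjusted p of 0.0108 in edgeR, in a fit that called 2.89% of all genes, and without either other EtOH library it was 0.30 or 0.31. *HK1*, the constitutive isozyme (chr10:69269984-69401884), went the other way between the EtOH libraries, with 13.5, 3.64 and 7.77 CPM, and measured 6.49, 5.53 and 10.8 CPM in Tet libraries. EtOH replicate 1 was the highest and EtOH replicate 2 the lowest of the 6. Its fitted log2 difference of -0.13 (SE 0.45, 95% interval -1.16 to 0.91, adjusted p = 0.963 in edgeR) became -0.48 without EtOH replicate 2 and 0.40 without EtOH replicate 1.

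*PFKP*, the platelet isozyme of phosphofructokinase (chr10:3066333-3137718), measured 10.1, 6.997 and 7.97 CPM in EtOH and 7.51, 9.20 and 13.6 CPM in Tet libraries. The groups overlapped and Tet replicate 3 was the highest. Its fitted log2 difference was 0.28 (SE 0.27, 95% interval -0.35 to 0.90, adjusted p = 0.802 in edgeR), 0.17 without EtOH replicate 2 and 0.0060 without Tet replicate 3. *ALDOA*, which cleaves fructose-1,6-bisphosphate, had 3.01, 3.61 and 2.25 CPM in EtOH and 1.70, 1.95 and 5.08 CPM in Tet libraries. The Tet libraries included the lowest and the highest values, and the fitted log2 difference was -0.01 (SE 0.45, 95% interval -1.03 to 1.01, adjusted p = 0.997 in edgeR), 0.16 without EtOH replicate 2 and -0.69 without Tet replicate 3. The level of *ALDOA* (chr16:30064164-30070457) is uncertain, because 54.4% of its exon bases also lie in other annotated genes, among them the read-through gene ENSG00000285043, and shared reads were divided between genes. Summed with that gene, *ALDOA* measured 5.32 ± 1.32 CPM in EtOH and 5.25 ± 3.78 CPM in Tet libraries (SD, n = 3 each).

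The enzymes of the later, ATP-yielding steps were also within the spread of the libraries. *PGK1*, which makes the first ATP of the pathway (chrX:77910739-78129295), measured 63.4, 139.7 and 61.1 CPM in EtOH and 71.1, 84.2 and 62.2 CPM in Tet libraries. EtOH replicate 2 alone was above the others, and the fitted log2 difference of -0.28 (SE 0.32, 95% interval -1.001 to 0.44, adjusted p = 0.832 in edgeR) was 0.23 without it. *ENO1*, the enolase of most tissues (chr1:8861000-8879190, minus strand), measured 69.1, 32.7 and 42.4 CPM in EtOH and 33.3, 33.3 and 44.5 CPM in Tet libraries. EtOH replicate 1 alone was high, and the fitted log2 difference of -0.38 (SE 0.28, 95% interval -1.01 to 0.25, adjusted p = 0.707 in edgeR) was -0.04 without it and -0.58 without EtOH replicate 2. *PKM*, which forms pyruvate (chr15:72199029-72231822, minus strand), measured 41.6, 27.7 and 20.6 CPM in EtOH and 23.1, 32.5 and 42.5 CPM in Tet libraries. The groups spanned nearly the same range, with a fitted log2 difference of 0.13 (SE 0.30, 95% interval -0.56 to 0.81, adjusted p = 0.937 in edgeR), which turned to -0.11 without EtOH replicate 3 and to -0.10 without Tet replicate 3 and was 0.08 without EtOH replicate 2. Counts per gene do not separate its M1 and M2 splice forms.

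*LDHA* encodes the lactate dehydrogenase subunit that favours the conversion of pyruvate to lactate (chr11:18394560-18408425). It measured 106, 78.3 and 103 CPM in EtOH and 51.0, 45.9 and 50.8 CPM in Tet libraries, with means of 95.5 ± 14.97 and 49.2 ± 2.88 CPM (SD, n = 3 each). The lowest EtOH library, replicate 2, was above every Tet library, and the Tet libraries lay close together. The fitted log2 difference was -0.96 (SE 0.16, 95% interval -1.33 to -0.58, not adjusted for the number of genes), or 1.94-fold lower in Tet. The unadjusted p was 0.000309 and the adjusted p was 0.0690 in edgeR's quasi-likelihood test, so the difference did not pass the threshold. Over 15 alternative settings the log2 fold change stayed between -1.08 and -0.90, and the adjusted p ranged from 9.3e-05 (DESeq2) to 0.357 (edgeR without EtOH replicate 3), below the threshold in 6 of them. Without EtOH replicate 2 the adjusted p was 0.00673 in edgeR, and with a correction for GC content, added after seeing the data, it was 0.0397 in a fit that called 0.553% of all genes. The 2 E-boxes printed for *LDHA* lie outside its annotated exons, and binding was not measured here.

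**Figure D2:**
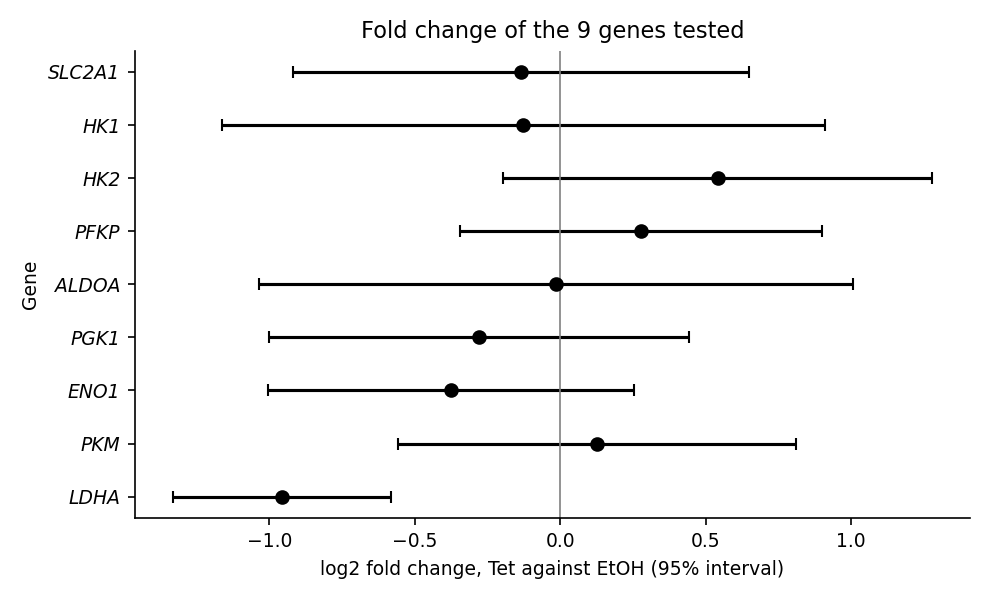
Fitted log2 fold change (Tet minus EtOH) of the 9 tested genes with 95% intervals that are not adjusted for the number of genes. The interval of *LDHA* (-1.33 to -0.58) lies below 0 and the other 8 include it.

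No single library was high or low across the whole set. EtOH replicate 2 was the highest of the 6 libraries for *SLC2A1*, *HK2* and *PGK1* and the lowest for *HK1*, *PFKP* and *ENO1*. EtOH replicate 1 was the highest for *HK1*, *ENO1* and *LDHA*, EtOH replicate 3 the lowest for *SLC2A1*, *PGK1* and *PKM*, and Tet replicate 3 the highest for *PFKP*, *ALDOA* and *PKM*. The GC content of exons was 43.0% for *PGK1*, 43.7% for *LDHA*, 51.1% for *HK2* and 53.4% to 57.3% for the other tested genes. With the GC correction, the log2 fold change was 0.48 for *HK2*, -0.21 for *SLC2A1*, -0.28 for *PGK1*, -0.09 for *HK1* and -0.95 for *LDHA*. *ALDOA*, with the highest GC content of the 9, had -0.30 with the correction and -0.01 without it. The 10 genes together took 0.0281% to 0.0388% of a library's counts.

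**Figure D3:**
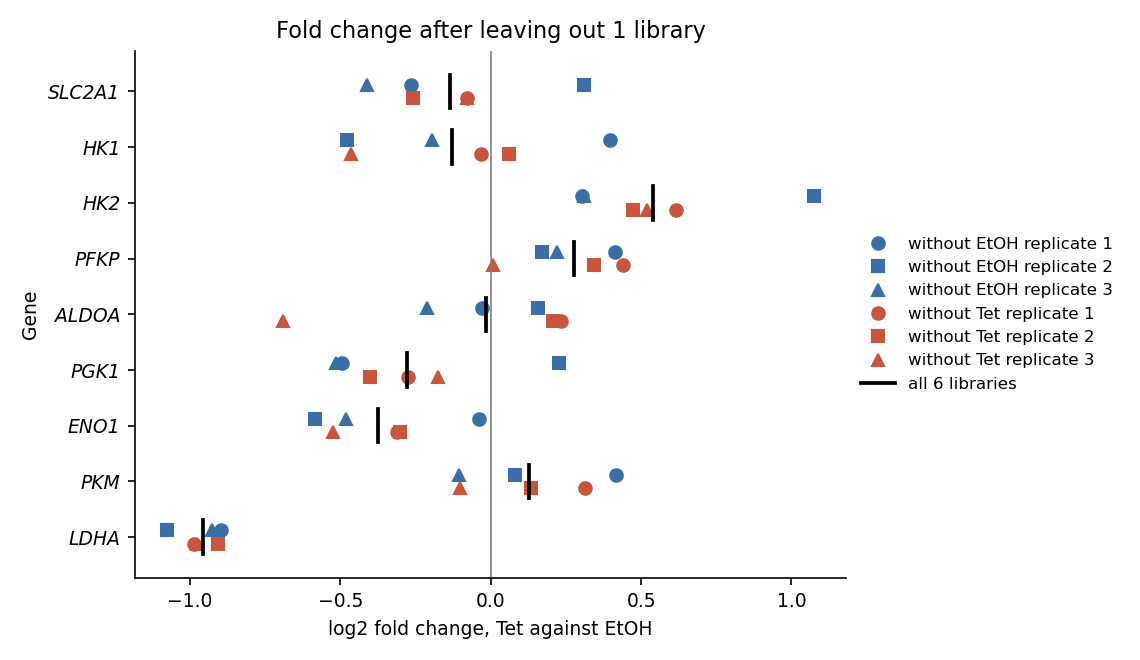
Log2 fold change (Tet minus EtOH) of the 9 tested genes with all libraries and with each library left out in turn. *LDHA* stays between -1.08 and -0.90, *HK2* between 0.30 and 1.07, and *SLC2A1*, *HK1*, *ALDOA*, *PGK1* and *PKM* fall on both sides of 0.

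Levels of different genes were compared per length, as CPM per kilobase of exon averaged over the 6 libraries. *PGK1* (14.8), *HK2* (13.0) and *LDHA* (11.985) were the highest, followed by *ENO1* (8.15), *PKM* (3.66), *HK1* (1.26), *PFKP* (1.19), *SLC2A1* (0.838), *ALDOA* (0.766) and *SLC2A3* (0.0021). The ranges over libraries of neighbours in this order overlapped, except between *ENO1* and *PKM*, between *PKM* and *HK1*, and between *ALDOA* and *SLC2A3*. Thus *HK2* was above *HK1* in every library. The places of *ALDOA* and *SLC2A1* depend on counting, since *ALDOA* shares exon bases with other genes. The levels were not corrected for GC content. *PGK1*, *HK2* and *LDHA*, the highest, had the lowest exon GC content of the tested genes (43.0%, 51.1% and 43.7%). The part of GC content in this order was not tested.

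Ratios between related isozymes compared their RNA levels within each library. They were not corrected for GC content, whose part in them was not tested. Of 7 planned pairs 6 were compared on the log2 scale by an exact two-sided permutation test, which cannot go below 0.1 with 3 libraries against 3, and *SLC2A3* to *SLC2A1* was left out at 0 to 2 counts. *LDHA* to *LDHB*, whose subunit favours the reverse reaction, was 0.264, 0.427 and 0.292 in EtOH and 0.195, 0.213 and 0.249 in Tet libraries. *LDHB* was the higher form in all 6 libraries, and every Tet ratio was below every EtOH ratio. The mean log2 ratio was -1.64 ± 0.37 in EtOH and -2.20 ± 0.18 in Tet (SD, n = 3 each), a difference of -0.56 (exact permutation p = 0.1, adjusted over the 6 pairs 0.6). Without EtOH replicate 2, which had the highest ratio, the difference was -0.35. *LDHB* itself measured 198, 90.7 and 174 CPM in EtOH and 129, 106 and 101 CPM in Tet libraries, and its log2 fold change of -0.46 (adjusted p = 0.613 in edgeR) did not pass. Without EtOH replicate 2, its lowest library, it was -0.72 and passed (adjusted p = 0.0370 in edgeR), and without EtOH replicate 1 it was -0.25. Of its exon bases, 33.4% are shared with ENSG00000285854, so that ratio is uncertain in level.

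The balance of the hexokinases varied most. *HK2* to *HK1* was 3.37, 29.5 and 6.02 in EtOH and 13.0, 19.1 and 9.25 in Tet libraries. *HK2* was the higher form throughout, and EtOH replicates 1 and 3 were below every Tet library while EtOH replicate 2 was above them all. The difference in mean log2 ratio was 0.65 (exact permutation p = 0.6), and it was 1.55 without EtOH replicate 2 and -0.0125 without EtOH replicate 1. For phosphofructokinase, *PFKP* exceeded the liver form *PFKL* (6.38 to 20.4) and was below the muscle form *PFKM* (0.343 to 0.639) in every library. The differences were -0.68 against *PFKL* (exact permutation p = 0.3), which was -0.36 without Tet replicate 3, and 0.49 against *PFKM* (exact permutation p = 0.2). *ALDOA* exceeded the brain aldolase *ALDOC* (3.35 to 11.4, with as few as 4 counts of *ALDOC*), with a difference of 0.17 (exact permutation p = 0.7) that was 0.63 without EtOH replicate 2 and -0.25 without EtOH replicate 1. *ENO1* exceeded the neuronal enolase *ENO2* in every library (13.7 to 57.2), and the difference was -0.59 (exact permutation p = 0.5). It was -0.18 without EtOH replicate 2, -0.95 without EtOH replicate 1 and -0.25 without Tet replicate 3.

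**Figure D4:**
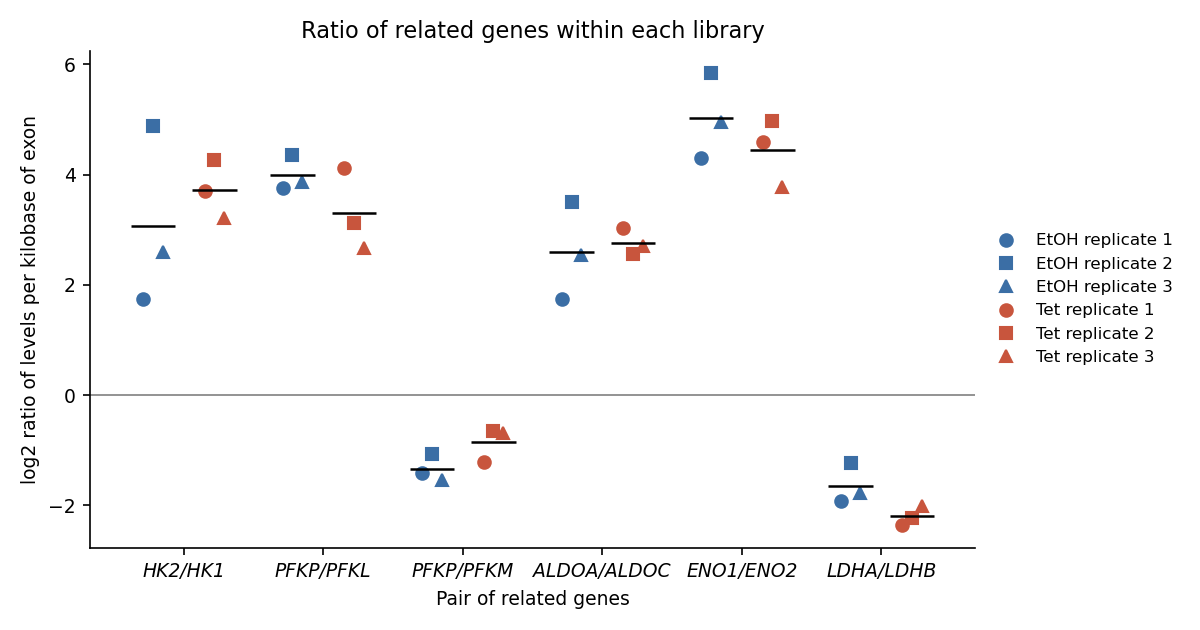
Log2 ratio of CPM per kilobase of exon for the 6 isozyme pairs, with 1 point for each library, coloured by group, and black bars at the group means. The groups are separate for *LDHA* to *LDHB* alone, and EtOH replicate 2 has the highest *HK2* to *HK1* ratio (29.5 on the linear scale).

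The surrounding pathway was described with 9 lists of 107 other genes, of which 72 could be tested. None passed the adjusted threshold in edgeR, beside 0.236% of all genes. At an unadjusted p under 0.05 there were 9 of 72 (12.5%), with 2 higher and 7 lower in Tet. Over all genes that share was 10.8% (5.83% higher and 4.94% lower). DESeq2 called 1 of the 72, beside 2.66% of all genes. The groups were separate for 12 genes (16.7%, 2 higher and 10 lower), beside 17.5% of all genes (9.20% higher and 8.28% lower). The 12.5% and the 16.7% were close to the shares over all genes. The median log2 fold change over the 72 genes was -0.07.

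Among the 12 tested of 21 other glycolytic enzymes, 0 had an unadjusted p under 0.05 in edgeR and none had separate groups. Over all genes these shares were 10.8% and 17.5%. *GAPDH*, the step before *PGK1*, measured 62.5, 30.4 and 34.8 CPM in EtOH and 26.5, 24.4 and 60.4 CPM in Tet libraries. EtOH replicate 1 and Tet replicate 3 were high and the groups overlapped. *GAPDH* was named after its values were seen. Of the 16 other sugar transporters 6 were tested, 3 with a log2 fold change above 0 and 3 below. The groups were separate for 3 of the 6, 1 higher and 2 lower in Tet, beside 17.5% of all genes. The proton-coupled inositol transporter *SLC2A13* measured 34.2, 53.0 and 37.0 CPM in EtOH and 23.8, 32.2 and 22.3 CPM in Tet libraries. Its groups were separate, with a log2 fold change of -0.67 (adjusted p = 0.322 in edgeR), and it was -0.44 without EtOH replicate 2. *SLC2A12* had -0.63 (adjusted p = 0.442 in edgeR), with 51.2% of the *SLC2A12* exon sequence shared with *TBPL1*.

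Downstream of *LDHA*, the monocarboxylate transporter *SLC16A7* (MCT2), which carries lactate and pyruvate, measured 257, 314 and 281 CPM in EtOH and 193, 212 and 176 CPM in Tet libraries. All Tet libraries were below all EtOH libraries, and the fitted log2 difference was -0.55 (SE 0.15, adjusted p = 0.212 in edgeR). *BSG*, the chaperone of other monocarboxylate transporters, had a log2 fold change of 0.93 (adjusted p = 0.584 in edgeR), with Tet replicate 3 at 12.03 CPM and the other libraries between 2.55 and 4.4 CPM, and it was 0.06 without that library. *PDP2*, a phosphatase that activates pyruvate dehydrogenase, measured 57.6, 62.1 and 57.2 CPM in EtOH and 43.0, 40.4 and 35.0 CPM in Tet libraries. Again the groups were separate, with a fitted log2 difference of -0.58 (SE 0.15, adjusted p = 0.194 in edgeR). *PC*, pyruvate carboxylase, had a log2 fold change of 0.61.

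Glycogen breakdown gave the lowest fold change among the genes named. *PYGL*, the liver-type glycogen phosphorylase, which releases glucose-1-phosphate, measured 22.7, 11.1 and 21.5 CPM in EtOH and 6.10, 3.92 and 5.44 CPM in Tet libraries. The lowest EtOH library was again replicate 2 and remained above every Tet library. The fitted log2 difference was -1.84 (SE 0.31), with an adjusted p of 0.0685 in edgeR, next to that of *LDHA*, and without EtOH replicate 2 it was -2.09 with an adjusted p of 0.00518 in edgeR. In the same list *GBE1*, the glycogen branching enzyme, had 0.47 (adjusted p = 0.426 in edgeR), and 5 of its 12 tested genes had separate groups, 4 of them lower in Tet, beside 17.5% and 8.28% of all genes. Among regulators of flux, *PFKFB2*, which sets the level of the phosphofructokinase activator fructose-2,6-bisphosphate, had a log2 fold change of -0.75 (adjusted p = 0.308 in edgeR), and *MLXIP*, a glucose-sensing transcription factor, had 0.67, which was -0.23 without Tet replicate 3. In the pentose phosphate pathway *RPIA* had -0.73 (adjusted p = 0.386 in edgeR) and *PGD* 0.32, and without EtOH replicate 2 they had -0.41 and 0.13. *G6PC3*, a glucose-6-phosphatase, was at 0.00, or -0.13 without EtOH replicate 2.

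**Figure D5:**
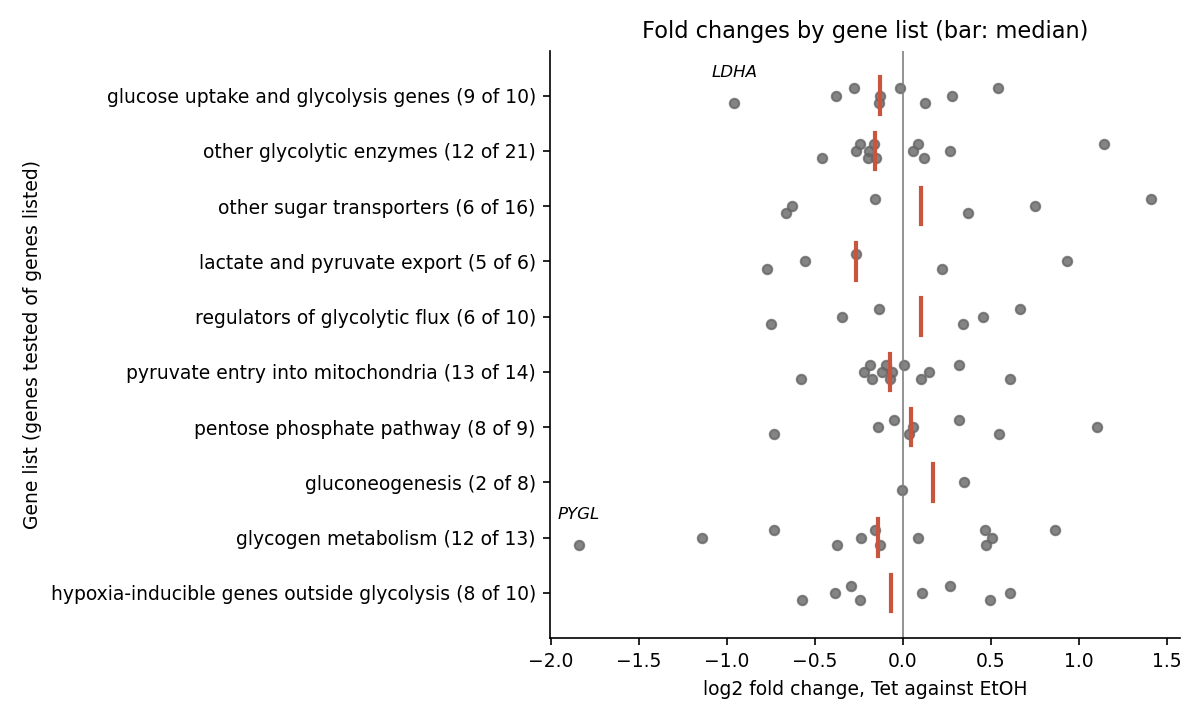
Log2 fold change (Tet minus EtOH) of the tested genes of the 10 glycolytic genes and of the 9 surrounding pathway lists, with the median of each. The medians lie between -0.27 (lactate and pyruvate export) and 0.17 (gluconeogenesis, 2 tested genes). All genes tested, with a median of -0.01, are not drawn. *PYGL* (-1.84) is the lowest of the genes named.

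The hypoxia-inducible genes outside glycolysis were included because this program shares regulation with the glycolytic genes. Of 8 tested, none had an unadjusted p under 0.05 in edgeR, beside 10.8% of all genes. *KDM3A*, a histone demethylase, measured 59.4, 129.7 and 60.9 CPM in EtOH and 117, 129 and 106 CPM in Tet libraries. As for *HK2*, EtOH replicates 1 and 3 were below all Tet libraries and EtOH replicate 2 was above them, so that the log2 fold change of 0.49 (adjusted p = 0.620 in edgeR) became 0.97 (adjusted p = 0.0131 in edgeR) without it. *P4HA1*, a collagen prolyl hydroxylase subunit, had a log2 fold change of -0.57 (adjusted p = 0.514 in edgeR), and without EtOH replicate 2 it had -0.19.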

How the data were processed

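The deposited values were estimated counts for each gene on GRCh38. Per the file headers, the authors counted uniquely aligned reads over exons with featureCounts 1.6.4, dividing a read that overlapped several genes evenly and ignoring strand, so overlapping and antisense genes share reads. The submitters' processing notes name STAR 2.7.1a and featureCounts 1.5.1. Values were not whole for 12.3% to 14.7% of genes and were rounded, since the planned test had assumed whole counts. The 92 spike-in entries held 0 counts and were left out.

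Genes passing filterByExpr were scaled by TMM and compared by edgeR's quasi-likelihood F test (edgeR 4.0.16, R 4.3.3), with Benjamini-Hochberg adjustment over all genes tested and no replicate block. CPM are TMM-normalised. The SE is the log2 fold change over the square root of F. The procedure was tested on simulated data, where the edgeR fits had to meet limits on recovery, false calls and error. DESeq2, an alternative only, was not held to these limits. Isozyme ratios were compared by an exact permutation test (scipy 1.17.1). Alternatives were DESeq2 1.42.0, its size factors, library totals, truncated counts, other filters, a replicate block, each library left out and, added after seeing the data, a GC correction. The floor of 3 counts covers counting error only, and the 95% intervals of fold changes include the spread between libraries.

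Named were the 10 genes, *MYCN*, isozyme partners, pathway genes past the threshold and, from each pathway list, the 2 genes with the lowest p at a mean of at least 1 CPM. The genes and lists were chosen with earlier results of these data known. A gene of the noradrenergic marker list is not reported here.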

Additional observations from a re-analysis of the deposited data

How the results depend on the processing

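Over all genes, 33 were higher and 20 lower in Tet in edgeR. The counts higher and lower were 342 and 255 with DESeq2, 185 and 117 with no filter, 421 and 254 with a replicate block, 75 and 49 with the GC correction, 628 and 461 with the GC correction and the block, and DESeq2 size factors gave 13 lower. Leaving out 1 library gave 0 to 361 higher and 0 to 331 lower, the highest counts without EtOH replicate 2. Of the 10 genes, 0 passed in edgeR and 1, *LDHA*, passed with DESeq2, the GC correction, both corrections, no filter or the block, and 0 to 2 with a library left out (2 without EtOH replicate 2: *HK2* and *LDHA*). The log2 fold change of *LDHA* under those 5 settings was -0.97, -0.95, -0.94, -0.96 and -0.95, and -1.08 to -0.90 with a library left out. In the same order, these settings called 2.66%, 0.553%, 4.85%, 0.746% and 3.01% of all genes tested. The fit without EtOH replicate 2 called 2.89%. Glycogen metabolism held 1 call under the same 5 settings. Sugar transporters, lactate export and pyruvate entry each held 1 with the replicate block with or without the GC correction, and the hypoxia list held 1 with both corrections. With a library left out, glycogen, lactate export, hypoxia, other glycolytic enzymes and regulators held 0 to 1. The causes were not tested. The sign of *HK1* turned with the block (0.0036), as did that of *ENO2* with the GC correction (-0.069) and with library totals (-0.0125). With a library left out, the log2 fold changes were -0.41 to 0.31 for *SLC2A1*, -0.48 to 0.40 for *HK1*, 0.30 to 1.07 for *HK2*, 0.0060 to 0.44 for *PFKP*, -0.69 to 0.23 for *ALDOA*, -0.51 to 0.23 for *PGK1*, -0.58 to -0.04 for *ENO1*, -0.11 to 0.42 for *PKM*, -0.22 to 0.21 for *MYCN*, -0.58 to 0.95 for *ENO2*, -0.23 to 1.05 for *MLXIP* and -0.45 to 0.23 for *G6PC3*. The *HK2* to *HK1* difference was -0.0125 to 1.55 and that of *ALDOA* to *ALDOC* -0.25 to 0.63. Libraries with the same number deviated together with positive correlations of 0.060, 0.51 and 0.22, and EtOH replicate 1 correlated best with Tet replicate 3 (0.38). The main fit did not take the numbers to pair the libraries. These correlations cannot settle whether the libraries were paired, so the fits with the block are given above. With the block the ratio pairs gave exact permutation p-values of 0.25 to 0.75, where 0.25 is the smallest possible. Depth limited *SLC2A3* and *ALDOC*.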
